A study of Mus musculus with 10 samples.

Results

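Across nEnd subpopulations, 329 of the 9134 regions marked by H3K4me3 lay away from every annotated promoter. To find them, overlapping consensus intervals of the 3 sorted populations, Oct4+ nEnd, DP nEnd and Pdgfra+ nEnd, were joined. A region was kept if it touched no promoter window, which reached from 1000 bp before a transcription start site (TSS) to 100 bp after it, of any GENCODE gene, coding or noncoding, in the mouse build GRCm38. The other regions were 8568 at promoters of protein-coding genes and 237 at promoters of noncoding genes only. The position of these regions comes from the choice itself, and the values of the 329 regions are given as description without a test. Tests between populations were made only over all off-promoter peaks of each library, within or outside the consensus lists.

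Naive extra-embryonic endoderm (nEnd) is a stem cell culture that models the primitive endoderm (PrE) of the blastocyst. Cells of an OCT4-mCherry reporter line, with no treatment, were sorted by FACS on this reporter and on PDGFRA into Oct4+ nEnd (reporter only), DP nEnd (both) and Pdgfra+ nEnd (PDGFRA only). CUT&Tag, which directs a transposase to the mark through an antibody, gave 4 H3K4me3 libraries from Oct4+ nEnd, 3 from DP nEnd and 3 from Pdgfra+ nEnd. All libraries derive from this single reporter line, and Oct4+ nEnd stands in the study for the cells that returned to a pluripotent state.

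H3K4me3 is the histone mark best known from active promoters, above all those rich in CpG dinucleotides, where it is laid down by SET1 and MLL methyltransferases. It is also found at lower levels at strong enhancers and near transcribed tRNA genes. A tRNA gene carries its RNA polymerase III promoter inside the gene, as an A box and a B box, and the GENCODE genes used here include 0 nuclear tRNA genes, so that a marked tRNA gene counts as off promoters unless another start lies nearby.

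The 10 libraries held 3477 to 10545 peaks. Peaks had been called with SEACR, and their signal, a coverage without scaling between libraries, served only to rank peaks within a library. Below, a percentile of 100 is the peak with the highest total signal of its library. Read depth is unknown. Only replicates 1, 2 and 4 of Oct4+ nEnd enter its consensus list, which leaves replicate 3 as the only library that took no part in choosing the regions. Promoters of epiblast (Epi) genes carried a peak for 20 to 24 of 28 genes in Oct4+ nEnd, 14 to 17 in DP nEnd and 5 to 9 in Pdgfra+ nEnd. Those of PrE genes carried one for 4 to 15 of 30, 22 to 24 and 19 to 23, respectively. Promoters of fibroblast genes, which would mark feeder cells, carried one for 0 to 2 of 15 in any library.

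Sequences of a first kind are tRNA genes, which 33 of the 329 regions held. The following are the genes, from RefSeq on GRCm38, of leading tRNA regions, written 5′ to 3′ on the strand of the gene with the B box core GTTCGA in capitals. The first 3 lie in regions of all populations, the next in a region of Oct4+ nEnd and DP nEnd and the last in a region of DP nEnd and Pdgfra+ nEnd.
tRNA-Leu, plus strand, chr14:51063883-51063964: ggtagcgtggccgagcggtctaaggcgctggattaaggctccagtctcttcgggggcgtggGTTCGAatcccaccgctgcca
tRNA-Asn, plus strand, chr3:96497781-96497854: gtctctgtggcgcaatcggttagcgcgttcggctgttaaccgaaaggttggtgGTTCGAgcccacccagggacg
tRNA-Ala, minus strand, chr5:125404250-125404321: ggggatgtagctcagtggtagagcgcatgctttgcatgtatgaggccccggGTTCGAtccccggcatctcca
tRNA-Arg, minus strand, chr13:23500522-23500594: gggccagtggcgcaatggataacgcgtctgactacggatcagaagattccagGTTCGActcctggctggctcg
tRNA-Leu, minus strand, chr7:120835479-120835560: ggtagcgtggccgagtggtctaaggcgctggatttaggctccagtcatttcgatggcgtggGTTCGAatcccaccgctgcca

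Sequences of a second kind come from regions of Oct4+ nEnd whose nearest coding gene is an Epi gene. The motifs searched on both strands were the octamer ATGCAAAT bound by OCT4, a SOX-OCT core TTGTNATGC, whose last 4 letters the octamer can share, and the ESRRB site TCAAGGTCA. Where such a region held any of them, 120 bases around 1 match are shown on the plus strand of GRCm38 with the matches in capitals.
Tet2 intron, chr3:133517842-133517961: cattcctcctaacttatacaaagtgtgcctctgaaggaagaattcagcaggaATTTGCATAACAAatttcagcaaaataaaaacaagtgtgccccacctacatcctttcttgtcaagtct
Pecam1 intron, chr11:106724565-106724684: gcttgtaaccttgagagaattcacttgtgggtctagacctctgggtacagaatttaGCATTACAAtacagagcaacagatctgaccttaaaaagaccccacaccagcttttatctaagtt
Downstream of Sox2, chr3:34757904-34758023: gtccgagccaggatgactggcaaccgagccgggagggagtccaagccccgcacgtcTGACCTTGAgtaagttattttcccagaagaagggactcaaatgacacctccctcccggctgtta
Downstream of Klf4, chr4:55476369-55476488: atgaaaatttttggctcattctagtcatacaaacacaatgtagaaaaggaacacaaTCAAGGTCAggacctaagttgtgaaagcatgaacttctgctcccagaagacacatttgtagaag

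In the Tet2 region the octamer and the SOX-OCT core overlapped on the minus strand, 312 and 316 bp from the centre of the segment of highest coverage, while the other octamers of the region lay 3914 and 3710 bp away. The ESRRB site shown for Sox2 lay 381 bp from that segment and a second match 993 bp, whereas the match in the Pecam1 region lay 1477 bp and that in the Klf4 region 4767 bp away. The region near Prdm14 held 0 matches to these 3 motifs. The shorter GATA site AGATAA had 3 to 9 matches in each of these 5 regions, some nearer to that segment, at 94 bp near Sox2 and 114 bp in Pecam1.

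Regions of the Oct4+ nEnd consensus only formed the largest group of the 329. These were 206 regions, 62.6% of those off promoters, where 9.52% of all union regions were of Oct4+ nEnd only. By contrast, regions of all 3 populations made up 51 of the 329, or 15.5%, against 71.1% of all union regions. Regions at noncoding promoters only lay between, with 86 of 237 of Oct4+ nEnd only (36.3%) and 100 of all 3 populations (42.2%), while coding promoter regions had 6.75% and 74.0%. A further 32 were of Oct4+ nEnd and DP nEnd (background 4.16%), 24 of DP nEnd and Pdgfra+ nEnd (10.5%), 9 of Pdgfra+ nEnd only (2.09%), 7 of DP nEnd only (2.22%) and 0 of Oct4+ nEnd and Pdgfra+ nEnd (0.405%). Read the other way, 289 of the 7781 union regions with an Oct4+ nEnd interval were off promoters, or 3.71%, compared with 1.42% for DP nEnd and 1.09% for Pdgfra+ nEnd. A consensus interval needs a peak in 2 libraries, and the number of Oct4+ nEnd only regions fell to 120 of 244 without Oct4+ nEnd replicate 1 and to 114 of 237 without replicate 2. The numbers for the other single populations rest on few libraries as well. Without Pdgfra+ nEnd replicate 1, 0 regions were of Pdgfra+ nEnd only and 25 of DP nEnd only.

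**Figure D1:**
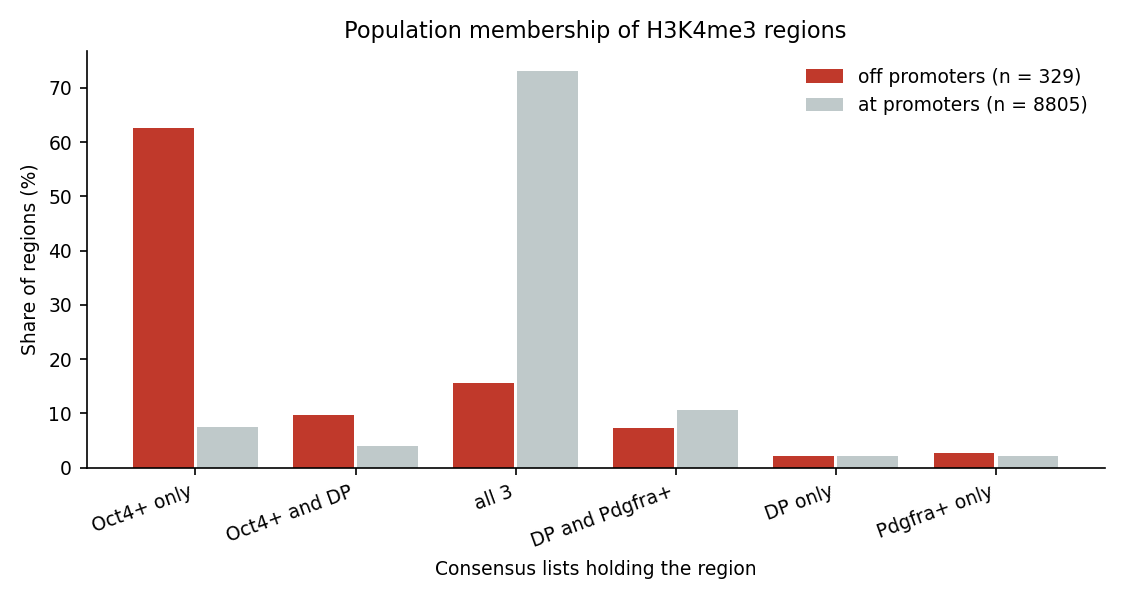
Share of regions (%) in each combination of consensus lists, for the 329 regions off promoters (red bars) and the 8805 regions at coding or noncoding promoters (grey bars). Oct4+ only is the highest red bar at 62.6%, whereas regions of all 3 populations form the highest grey bar.

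Single libraries were counted next. At 100 of the 329 regions, replicates 1, 2 and 4 of Oct4+ nEnd had a peak while DP nEnd had none, a split shown by 2.93% of all union regions. The same comparison with Pdgfra+ nEnd counted 104 regions (background 3.22%). With replicate 3 required too, these counts were 23 (1.01%) and 31 (1.43%). In the opposite direction, all DP nEnd libraries but no Oct4+ nEnd library had a peak at 4 regions (4.82%), and all Pdgfra+ nEnd libraries but no Oct4+ nEnd library at 4 (3.59%). DP nEnd and Pdgfra+ nEnd split 3 regions with a peak in every DP nEnd library only (0.263%) and 0 in the opposite direction (0.0109%). Of the 206 regions of Oct4+ nEnd only, 23 had a peak in some DP nEnd or Pdgfra+ nEnd library, so that 183 had none in those 6 libraries. Pdgfra+ nEnd replicate 1 had a peak at 19 of the 206 (9.22%) and DP nEnd replicate 2 at 7 (3.4%). At the 664 promoter regions of Oct4+ nEnd only, these libraries had a peak at 295 (44.4%) and 163 (24.5%).

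Replicate 3 of Oct4+ nEnd, which took no part in the choice, had a peak at 57 of the 329 regions (17.3%). At promoter regions it had one at 37.5%. Among the regions of Oct4+ nEnd only, it had a peak at 26 of 206 (12.6%) off promoters and at 81 of 664 (12.2%) at promoters. For regions of Oct4+ nEnd and DP nEnd the share was 46.9% off promoters (15 of 32) and 27.3% at promoters, whereas for regions of all 3 populations it was 31.4% (16 of 51) and 48.5%, the opposite order. Off promoters, 0 of the 40 regions outside the Oct4+ nEnd consensus had a peak in it. Promoter regions outside that consensus were alike, so that this count is not particular to regions off promoters. There it had a peak at 1 of 935 regions of DP nEnd and Pdgfra+ nEnd. At regions of DP nEnd only and of Pdgfra+ nEnd only, it had one at 0 of 196 and 0 of 182. This library is also the shallowest in peaks, with 3477.

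**Figure D2:**
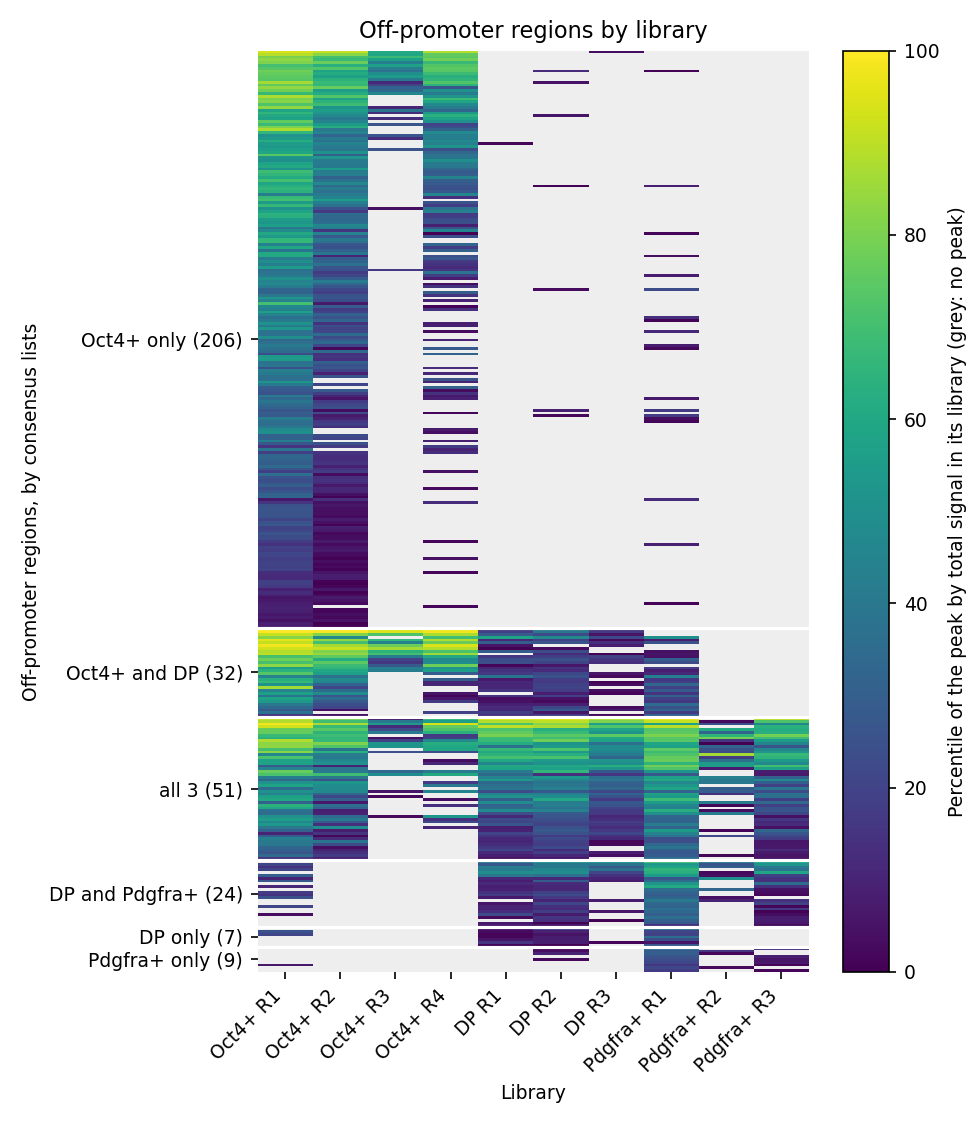
The 329 regions off promoters (rows, grouped by consensus lists with their number) in the 10 libraries (columns). Colour gives the percentile (0 to 100) of the peak by total signal in its library and grey marks no peak. Regions of Oct4+ only are grey in most DP nEnd and Pdgfra+ nEnd libraries, and Oct4+ R3 holds fewer of them than the other Oct4+ nEnd libraries.

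At the level of whole libraries, each peak was classified by the same promoter windows, whether or not it entered a consensus list. The share of peaks off promoters was 6.11%, 4.35%, 2.50% and 4.17% in Oct4+ nEnd replicates 1 to 4, 1.64%, 1.73% and 1.28% in DP nEnd replicates 1 to 3, and 3.69%, 1.04% and 1.40% in Pdgfra+ nEnd replicates 1 to 3. Every Oct4+ nEnd library lay above every DP nEnd library, but Pdgfra+ nEnd replicate 1 lay above Oct4+ nEnd replicate 3. The means were 4.28% ± 1.48 (SD, n = 4), 1.55% ± 0.238 (SD, n = 3) and 2.04% ± 1.44 (SD, n = 3). By exact two-sided permutation tests over the libraries, adjusted over the 3 pairs, Oct4+ nEnd and DP nEnd differed by 2.73 percentage points (p = 0.0571, adjusted p = 0.171) and Oct4+ nEnd and Pdgfra+ nEnd by 2.24 points (p = 0.143, adjusted p = 0.214, exact permutation tests). For DP nEnd minus Pdgfra+ nEnd the difference was -0.49 points (p = 0.90, exact permutation test). The smallest p that 4 against 3 libraries allow is 0.0286, and 3 against 3 cannot go below 0.10. When the 3477 peaks with the highest signal were taken from each library, the differences were 1.91 and 1.88 points for Oct4+ nEnd against DP nEnd and against Pdgfra+ nEnd, and both passed the test (adjusted p = 0.0429 in the exact permutation test). Within Oct4+ nEnd and within Pdgfra+ nEnd, the library with the highest share was also that with the most peaks, 9144 and 10545.

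Off-promoter peaks of Oct4+ nEnd lay within genes more often than those of the endodermal populations. The peak centre fell in a gene for 49.2%, 47.4%, 44.8% and 48.0% of off-promoter peaks in Oct4+ nEnd replicates 1 to 4. It did so for 28.6%, 32.0% and 29.9% in DP nEnd and for 40.9%, 32.4% and 28.4% in Pdgfra+ nEnd. The groups did not overlap, and the differences of 17.2 and 13.5 percentage points each gave p = 0.0286 (adjusted p = 0.0429, exact permutation test), the smallest p this design allows. The median highest coverage of all peaks, which is unscaled, also separated Oct4+ nEnd from the others, at 22 to 59 in Oct4+ nEnd, 107 to 144 in DP nEnd and 67 to 143 in Pdgfra+ nEnd, and its part in the differences between populations was not tested. Between both endodermal populations the difference, DP nEnd minus Pdgfra+ nEnd, was -3.72 points (p = 0.50, exact permutation test). With any 1 library left out the differences from Oct4+ nEnd remained at 16.4 to 18.1 and 10.8 to 17.0 points, but so few libraries cannot pass the test. When only coding promoters were excluded, the differences shrank to 6.92 points (adjusted p = 0.15) and 2.17 points (adjusted p = 0.457, exact permutation test). At the 329 regions alone, most of which entered through Oct4+ nEnd peaks, they were 14.4 and 15.7 points, without a test. When a peak was placed by its segment of highest coverage alone, which put 27.2% to 40% of all peaks off promoters, the direction turned, to -3.36 and -2.44 points, and the share of peaks off promoters differed by -0.54 points between Oct4+ nEnd and DP nEnd.

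Most off-promoter peaks were more than 5 kb from any TSS in every library, 62.1% to 68.2% in Oct4+ nEnd, 63.9% to 71.1% in DP nEnd and 54.4% to 65.8% in Pdgfra+ nEnd. No pair of populations passed the test for this share. The differences were -0.71 points for Oct4+ nEnd against DP nEnd (adjusted p = 0.80), 7.15 points for Oct4+ nEnd against Pdgfra+ nEnd (adjusted p = 0.429) and 7.85 points between DP nEnd and Pdgfra+ nEnd (adjusted p = 0.45, exact permutation tests).

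**Figure D3:**
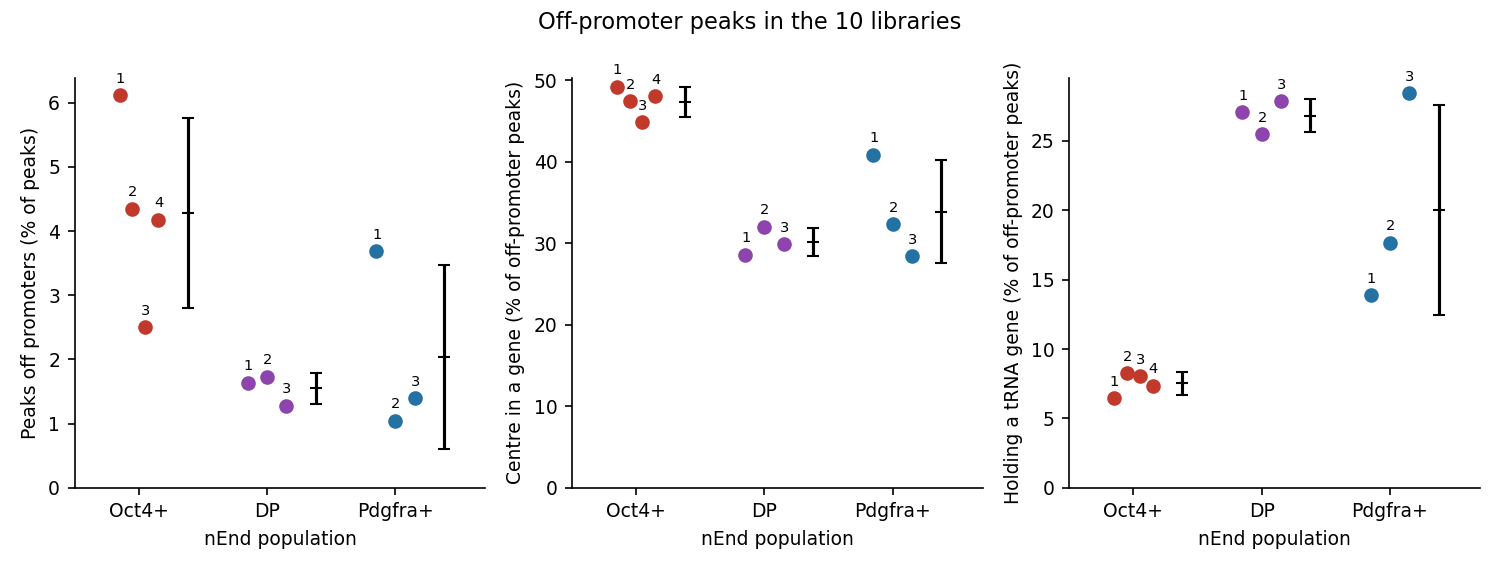
Off-promoter peaks in each library (points, numbered by replicate) of Oct4+ nEnd, DP nEnd and Pdgfra+ nEnd, with bars for the mean ± SD. Left, share of all peaks (%), where Pdgfra+ nEnd replicate 1 at 3.69% overlaps Oct4+ nEnd. Centre, share of off-promoter peaks centred in a gene (%), where Oct4+ nEnd lies above both other populations. Right, share of off-promoter peaks that hold a tRNA gene (%), which is 6.44% to 8.24% in Oct4+ nEnd.

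In all 10 libraries, off-promoter peaks were weaker than promoter peaks. Their median percentile by total signal was 25.7, 27.4, 37.2 and 28.8 in Oct4+ nEnd replicates 1 to 4, 17.7 to 18.5 in DP nEnd, and 11.8, 28.0 and 19.9 in Pdgfra+ nEnd, while promoter peaks lay between 50.3 and 51.6. The mean difference of -27.5 percentile points, of the same sign in 10 of 10 libraries, gave p = 0.00195 in an exact two-sided sign-flip permutation test, the smallest p it can give. It was -11.4 percentile points when peaks were placed by the segment of highest coverage alone. By highest coverage in place of total signal, the off-promoter medians were 6.63 to 9.43 in Oct4+ nEnd, 9.15 to 11.9 in DP nEnd and 9.44, 29.1 and 14.1 in Pdgfra+ nEnd replicates 1 to 3. Off-promoter peaks of Oct4+ nEnd were also wide, 1.2 to 1.3 times the median width of promoter peaks of the same library, against 0.96 to 1.0 times in DP nEnd and 0.85 to 0.94 times in Pdgfra+ nEnd. Width enters the choice, since a wider peak reaches a promoter window more easily, so that this is a description. Total signal is summed over the width of a peak, so that width also enters the rank by total signal, and its part was not tested. By highest coverage the mean difference was -39.2 percentile points.

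Off-promoter peaks were poorer in CpG. The CpG ratio, observed over expected from the base composition, had medians of 0.269, 0.288, 0.302 and 0.277 in off-promoter peaks of Oct4+ nEnd replicates 1 to 4, 0.436, 0.424 and 0.478 in DP nEnd and 0.388, 0.603 and 0.535 in Pdgfra+ nEnd. Promoter peaks of the same libraries had 0.494 to 0.662. The mean difference was -0.145, lower off promoters in 10 of 10 libraries (p = 0.00195, exact sign-flip permutation test, its smallest value). The CpG ratio is a trait of the sequence, and 6443 of the 8805 promoter regions were in all 3 consensus lists. The 10 differences thus come in part from the same sequences and are not independent of each other. With peaks placed by the segment of highest coverage alone the mean difference was -0.0176, lower in 9 of 10 libraries and 0.0126 in Pdgfra+ nEnd replicate 2. The gap was -0.229 to -0.291 in Oct4+ nEnd, -0.0632 to -0.0743 in DP nEnd and -0.0454 to -0.111 in Pdgfra+ nEnd, ranges that did not overlap between Oct4+ nEnd and the others. This last contrast was noticed in the values and was not tested.

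**Figure D4:**
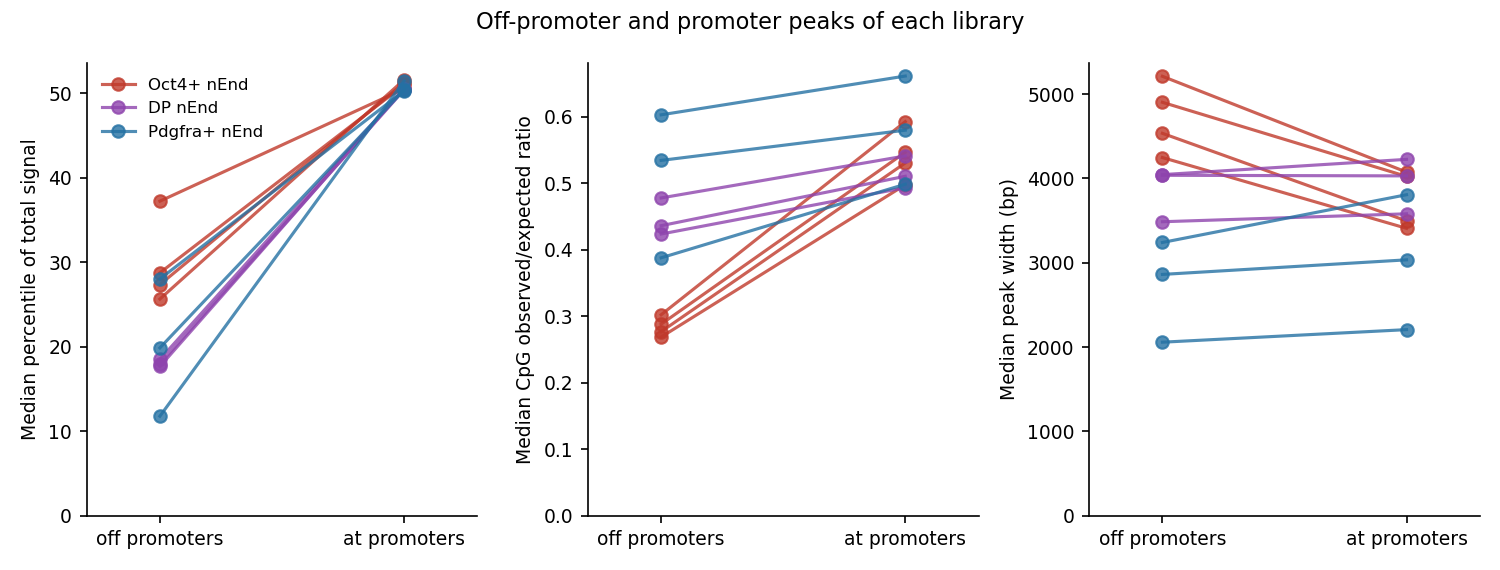
Medians over off-promoter peaks (left end of each line) and over promoter peaks (right end) for each of the 10 libraries, coloured by population. Left, percentile by total signal. Centre, CpG ratio (observed/expected), where the 4 Oct4+ nEnd lines start between 0.269 and 0.302. Right, peak width in bp, where the 4 Oct4+ nEnd lines fall from left to right.

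The 329 regions differed in makeup between populations. Their median width was 5645 bp (1964 to 19664), and their median distance to the nearest TSS 7933 bp, with 7 regions within 1 kb, 91 at 1 to 5 kb, 169 at 5 to 20 kb, 60 at 20 to 100 kb and 2 farther away. Of the 206 regions of Oct4+ nEnd only, 94 were centred in an intron, 14 in an exon and 98 between genes. Of the 51 regions of all 3 populations, 44 were centred between genes, as were 22 of the 32 of Oct4+ nEnd and DP nEnd and 13 of the 24 of DP nEnd and Pdgfra+ nEnd. The median CpG ratio was 0.251 for Oct4+ nEnd only and 0.315 for Oct4+ nEnd and DP nEnd, against 0.418 for all 3 and 0.437 for DP nEnd and Pdgfra+ nEnd, with 0.444 at coding and 0.38 at noncoding promoter regions. Soft-masked repeats covered a median of 23.8% of the bases, against 18.6% at coding and 21.5% at noncoding promoter regions. By consensus lists the median ran from 15.6% for Pdgfra+ nEnd only to 25.8% for Oct4+ nEnd only.

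Transcript starts that GENCODE M21 lacks but RefSeq annotates lay in the promoter window of 75 of the 329 regions. They touched 26 of the 51 regions of all 3 populations and 31 of the 206 of Oct4+ nEnd only. For 47 of the 75, every RefSeq gene there had only a provisional Gm or LOC symbol. Of the regions described below, those near Prdm14, Cd9, Arid1b, Olfr1423, Trim27 (with 7 tRNA genes) and 2700062C07Rik touch such a start, and those in Tns3, Gab1, Pced1b and Phactr1 a start of the gene they lie in. With tRNA genes counted too, 97 regions had a RefSeq start or a tRNA gene, and 232 had neither, 173 of them of Oct4+ nEnd only and 16 of all 3 populations. Just inside the rule lay regions 43, 71 and 184 bp beyond the nearest promoter window, at Rnf220 (chr4:117366524-117375314), 4930444M15Rik (chr14:76512711-76520684) and Ubxn11 (chr4:134112811-134121700). Just outside it, regions at Sema6c (chr3:95170890-95174506), Gm11969 (chr11:6176192-6182953) and Fmnl1 (chr11:103196861-103201336) overlapped a window by 16, 20 and 41 bp. All of these were of Oct4+ nEnd only.

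The 33 regions with a tRNA gene held 87 of the 403 RefSeq tRNA genes, which belong to 18 amino acid families. They made up 18 of the 51 regions of all 3 populations (35.3%), 7 of the 32 of Oct4+ nEnd and DP nEnd (21.9%), 6 of the 24 of DP nEnd and Pdgfra+ nEnd (25%) and 2 of the 206 of Oct4+ nEnd only (0.971%). Neither the DP nEnd only nor the Pdgfra+ nEnd only regions held any (0 of 7 and 0 of 9). Among coding promoter regions, 44 of 8568 held one (0.514%), and among those at noncoding promoters only 13 of 237 (5.49%), beside the 33 of 329 off promoters. The tRNA genes outside these regions divide into 82 in coding promoter regions, 31 in noncoding ones and 203 without a consensus interval.

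By library, tRNA genes were present in 27.1%, 25.5% and 27.8% of off-promoter peaks of DP nEnd replicates 1 to 3, 6.44%, 8.24%, 8.05% and 7.35% of those of Oct4+ nEnd replicates 1 to 4 and 13.9%, 17.6% and 28.4% of those of Pdgfra+ nEnd. In numbers of peaks these were 36, 39 and 27 in DP nEnd, 36, 29, 7 and 15 in Oct4+ nEnd and 54, 12 and 31 in Pdgfra+ nEnd. The shares of Oct4+ nEnd lay below all others, whereas its replicates 1 and 2 lay within the range of DP nEnd in the number of such peaks. These shares were not tested. Promoter peaks held a tRNA gene in 0.543% to 0.790%.

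The region with most tRNA genes was chr19:12001630-12014467, in an olfactory receptor cluster near Olfr1423, with 8 tRNA genes over 12838 bp. Its percentiles were 91.7, 79.9, 5.51 and 65.6 in Oct4+ nEnd, 96.1, 95.4 and 87.6 in DP nEnd, and 97.5 and 89.1 in Pdgfra+ nEnd replicates 1 and 3, with no peak in replicate 2. A region near Trim27, chr13:21165092-21176329, held 7, and one near Btn2a2, chr13:23496431-23509300, held 6. The latter, of Oct4+ nEnd and DP nEnd, contains the tRNA-Arg gene shown above. These last 2 regions lie in the histone gene cluster of chromosome 13, where between 21000000 and 24000000 a total of 16 of the 329 regions were found among 55 Hist1 genes. Of these 16, 15 held tRNA genes (41 genes), and 7 were of Oct4+ nEnd and DP nEnd, 4 of all 3 populations, 3 of DP nEnd and Pdgfra+ nEnd and 2 of Oct4+ nEnd only.

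**Figure D5:**
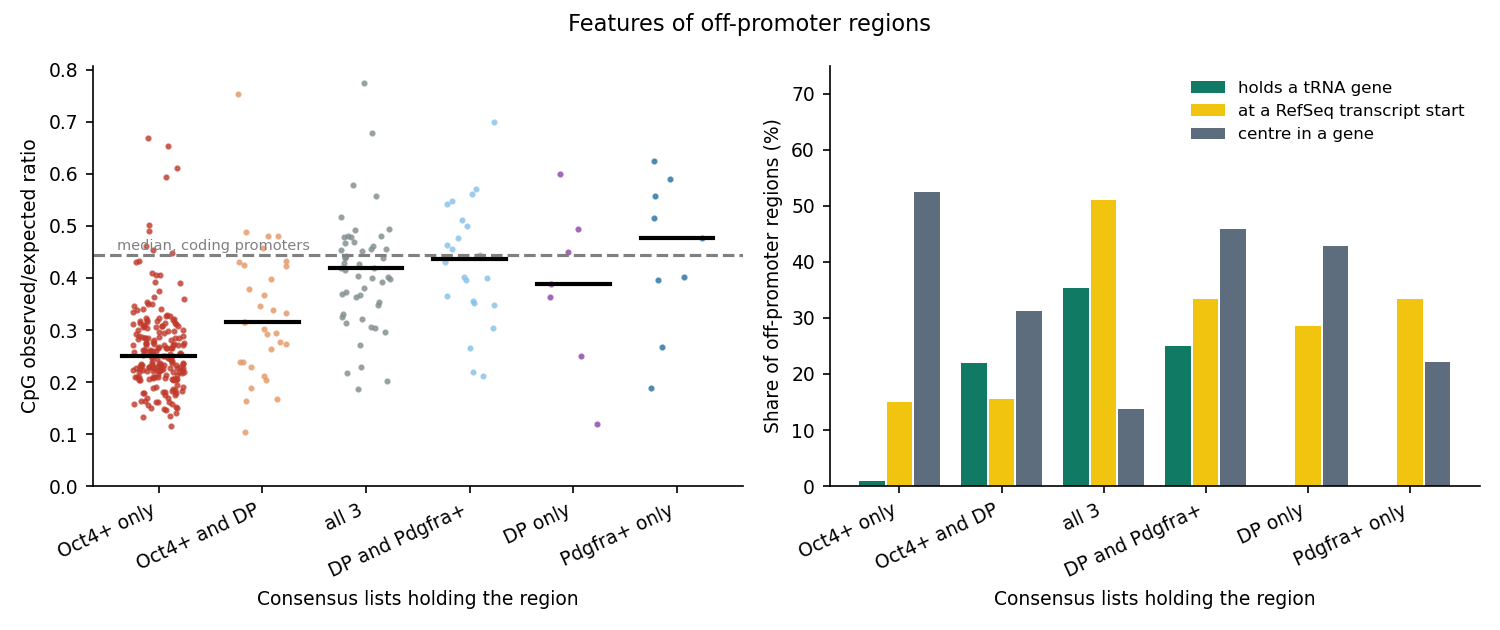
Left, CpG ratio (observed/expected) of each of the 329 regions (points) by consensus lists, with the median (black line) and the median of coding promoter regions (dashed line, 0.444). Right, share of regions (%) in each group that hold a tRNA gene (green), touch the promoter window of a RefSeq transcript (yellow) or are centred in a gene (grey). Oct4+ only has a median ratio of 0.251 and the lowest share with a tRNA gene among the 4 groups that hold any, 0.971%.

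Among the regions of Oct4+ nEnd only, the leading ones had a peak in all 4 Oct4+ nEnd libraries, as did 26 of the 206. Replicate 3, the library with fewest peaks, had a peak at 12.6% of the 206 and at 12.2% of promoter regions of Oct4+ nEnd only. The region chr11:62508055-62514882, in an intron of Pigl, a deacetylase of GPI anchor synthesis, and nearest to the coding TSS of Cenpv, had percentiles of 79.4, 69.6, 68.1 and 74.8 in replicates 1 to 4. It had no peak in DP nEnd or Pdgfra+ nEnd. In an intron of Zmynd8, which encodes a chromatin reader, chr2:165806628-165815540 ranked at 94.1, 91.3, 61.6 and 88.4, with a peak at 3.64 in DP nEnd replicate 3. The region chr2:152175745-152182465, 32184 bp downstream of Tcf15, a bHLH transcription factor, ranked at 89.2, 82.2, 58.8 and 75.6. That in an intron of Tns3, chr11:8620876-8627997, ranked at 70.1, 63.5, 57.3 and 73.0 and touches a RefSeq start of Tns3. Neither of these 2 had a peak in the other populations.

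Epi genes were the nearest coding genes of 5 of the 329 regions, all of Oct4+ nEnd only. These are 5 of the 28 genes of the list (17.9%), while 302 of 21728 protein-coding genes (1.39%) were nearest to some region. Of the 30 PrE genes, the 14 trophectoderm (TE) genes and the 15 fibroblast genes, 0 were. Within 100 kb of a region lay 7 of the 28 Epi genes (25%), 1 of the 30 PrE genes (3.33%), 0 TE genes and 0 fibroblast genes, against 4.91% of all protein-coding genes. The lists were drawn up with earlier results of these data known, so that the counts are a description.

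The region near Sox2, a transcription factor of pluripotency, was chr3:34754230-34758823, 103825 bp downstream of the gene and annotated in RefSeq as the Sox2 control region, a distal enhancer of embryonic stem cells. It ranked low, at 18.5, 0.704 and 4.48 in Oct4+ nEnd replicates 1, 2 and 4, with no peak in replicate 3 or in any other population. Near Klf4, a further pluripotency factor, chr4:55470806-55482748 lay 49022 bp downstream and ranked at 47.3 and 7.12 in replicates 1 and 4 only. Near Prdm14, a regulator of naive pluripotency, chr1:13102657-13106065 lay 21098 bp downstream and ranked at 20.6 and 0.834 in replicates 1 and 2 only. It touches the RefSeq start of Gm39592.

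In an intron of Tet2, which encodes a 5-methylcytosine dioxygenase, chr3:133512501-133520580 had a peak in each Oct4+ nEnd library, at 68.2, 54.3, 26.2 and 20.3. In an intron of Pecam1, the surface adhesion molecule used to mark pluripotent cells, chr11:106719516-106725321 ranked at 50.8, 55.3 and 33.7 in replicates 1, 2 and 4. No DP nEnd or Pdgfra+ nEnd library had a peak at either. The stretches of both regions shown above hold a SOX-OCT core.

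Nanog, Klf2 and Lin28a had regions within 100 kb that lie nearer to other coding genes. That 53043 bp from Nanog, chr6:122760611-122767869 in an intron of Slc2a3, a glucose transporter gene, belongs to Oct4+ nEnd and DP nEnd and is annotated in RefSeq as a +60 enhancer fragment. These regions were picked out after their values were seen, and Lin28a had a second, that at Ubxn11 given above, at 93970 bp. The percentiles near Nanog were 66.4, 45 and 10.3 in Oct4+ nEnd replicates 1, 2 and 4, 11.5, 16.8 and 0.264 in DP nEnd and 18.3 in Pdgfra+ nEnd replicate 1. The region 44901 bp from Klf2, chr8:72268268-72274132, ranked at 15.1, 4.41 and 12.6 in Oct4+ nEnd replicates 1, 2 and 4. That 46599 bp from Lin28a, chr4:133955472-133962812, ranked at 50.6, 32.5, 27 and 42.9 in replicates 1 to 4. RefSeq enhancers were touched by 15 of the 329 regions, 11 of Oct4+ nEnd only, 3 of Oct4+ nEnd and DP nEnd and 1 of DP nEnd only. Regions of Oct4+ nEnd only are 206 of the 329, so that they lead among all regions off promoters too. At promoters, 37 of 8805 regions touched a RefSeq enhancer, 4 of them of Oct4+ nEnd only and 26 of all 3 populations.

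Regions of Oct4+ nEnd and DP nEnd included some of the widest of all and some that ranked highest by total signal. At chr5:33523989-33538892, 14904 bp between genes and 90013 bp upstream of the homeobox gene Nkx1-1, the percentiles were 99.6, 99.2, 94.7 and 97.8 in Oct4+ nEnd and 18.3, 39.6 and 16.5 in DP nEnd, with no peak in Pdgfra+ nEnd. By highest coverage the same peaks ranked at 97.1, 93.3, 98.1 and 91.8 in Oct4+ nEnd but at 0.597, 0.707 and 0.581 in DP nEnd, where the peak was thus wide and shallow. A region 13082 bp downstream of Rab12, a small GTPase gene, chr17:66475735-66487237, ranked at 98.3, 98.0, 96.1 and 96.4 in Oct4+ nEnd and at 26.7, 31.1 and 21.1 in DP nEnd, and Pdgfra+ nEnd again had no peak. By highest coverage the Rab12 region ranked lower, at 66.0, 62.6, 42.8 and 52.1 in Oct4+ nEnd and at 0.369, 0.402 and 0.152 in DP nEnd. The Oct4+ nEnd and DP nEnd values did not overlap at either region. Regions of this group as a whole had the same order, with median percentiles of 56.0 to 68.7 in Oct4+ nEnd libraries and 5.69 to 18.5 in DP nEnd libraries. At promoter regions of the same populations the medians were 32.9 to 49.1 and 7.84 to 16.1, so that this order is not particular to regions off promoters.

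The other leading regions of this group were chr15:85668698-85673106 in Lncppara, upstream of Ppara, and chr5:109840583-109845841 near Gm15446, each with a peak in all 7 libraries of both populations and in Pdgfra+ nEnd replicate 1. The first ranked at 71, 75.2, 41.7 and 60.2 in Oct4+ nEnd and 16.4, 18.4 and 19.4 in DP nEnd, and the second at 77.8, 62.0, 19.9 and 48.0 and at 24.2, 24.6 and 15.5. Their DP nEnd values lay below all of Oct4+ nEnd at the first region, whereas they overlapped at the second. The widest region of all, chr6:125418067-125437730, spanned 19664 bp downstream of Cd9, a tetraspanin gene. It reached this width in Oct4+ nEnd replicate 1 (percentile 86.3, but 15.3 by highest coverage), whereas the peak in replicate 2 was 3587 bp wide. The region upstream of Ssbp3, chr4:106851915-106867827, 15913 bp wide, ranked at 97.8, 86.4, 77.3 and 94.6 in Oct4+ nEnd and at 5.49 and 7.92 in DP nEnd replicates 1 and 3. By highest coverage its Oct4+ nEnd peaks ranked at 43.0, 19.9, 5.52 and 31.9.

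Of the regions in all 3 consensus lists, 10 had a peak in each of the 10 libraries. Promoter regions with a peak in each library were not counted. Oct4+ nEnd replicate 3 had a peak at 31.4% of off-promoter and 48.5% of promoter regions in all 3 lists. Pdgfra+ nEnd replicate 2 had one at 58.8% and 87.7%. In an intron of Gab1, an adaptor of receptor tyrosine kinases, chr8:80854228-80861516 ranked between 41.5 and 76.5 in Oct4+ nEnd, 51.6 and 75.5 in DP nEnd and 32.5 and 74.7 in Pdgfra+ nEnd, ranges that overlap throughout. That in Pced1b, chr15:97371940-97387194, ranked at 98.2, 87.2, 55.1 and 93.8 in Oct4+ nEnd, 71.5, 81.7 and 56.3 in DP nEnd and 58.2, 23.8 and 46.1 in Pdgfra+ nEnd. Both touch RefSeq starts of the gene they lie in. The regions chr1:86485253-86494014 near Ptma, a nuclear acidic protein gene, and chr15:81521067-81525816 near Rbx1, a RING subunit of cullin ubiquitin ligases, had neither a RefSeq start nor a tRNA gene. The lowest and highest percentiles over libraries were 26.0 and 83.5 for the first and 22.9 and 76.8 for the second.

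Regions shared by DP nEnd and Pdgfra+ nEnd had a median width of 4543 bp, against 4643 bp at promoter regions of the same populations. The leading one, chr17:23695715-23701780, 4559 bp downstream of 1520401A03Rik, ranked at 41.2, 50.7 and 50.2 in DP nEnd and 68.9, 40.7 and 58.6 in Pdgfra+ nEnd, and no Oct4+ nEnd library had a peak there. The region at Lhx6, a LIM homeobox gene, chr2:36089112-36092965, is centred in an exon 1308 bp downstream of a TSS. It ranked at 43.0, 40.2 and 27.8 in DP nEnd and 58.0, 29.9 and 40.8 in Pdgfra+ nEnd, with 1 peak at 14.3 in Oct4+ nEnd replicate 1. That at Prr7, chr13:55469303-55474774, also had 1 Oct4+ nEnd peak, at 21.2, and so had chr19:61264115-61268178 near Gm21060, at 9.82.

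Regions of DP nEnd only and of Pdgfra+ nEnd only made up 2.13% and 2.74% of the 329, close to their 2.22% and 2.09% of all union regions. Only that in an intron of Phactr1, chr13:42913793-42920312, had a peak in all 3 DP nEnd libraries among the 7 of DP nEnd only, at 16.0, 8.34 and 1.24, and Pdgfra+ nEnd replicate 1 had one there too. All 7 had a peak in that library. Those near Gm11444 (chr11:85840080-85846460), Ccnl1 (chr3:65972941-65976028) and 2700062C07Rik ranked at 5.92, 2.78 and 6.19 in DP nEnd replicate 1, at 8.31, 9.37 and 19.6 in replicate 2 and at 24.0, 20.9 and 36.3 in Pdgfra+ nEnd replicate 1. The region near Ccnl1 also had a peak in Oct4+ nEnd replicate 1, at 25.2, above all its other values. Of the 9 regions of Pdgfra+ nEnd only, each had a peak in replicate 1 and in 1 other library of the population. The leading one, chr7:120829615-120832789 upstream of Eef2k, ranked at 29.2 and 15.5 in replicates 1 and 2 and lies next to the region of the tRNA-Leu gene of chromosome 7 shown above. Those near Adm, a vasoactive peptide gene, and Chst15, a sulfotransferase gene, ranked at 35.9 and 12.8 and at 26.4 and 8.53 in replicates 1 and 3. DP nEnd replicate 2 also had weak peaks near Eef2k and Adm, at 3.63 and 1.99. The region 84345 bp upstream of Arid1b, a chromatin remodeller gene, ranked at 21.2 and 6.78 in the same libraries.

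Farthest from any TSS was chr7:58397052-58401665, at 116497 bp, which holds a tRNA-Glu gene and ranked at 15.2 and 4.77 in Oct4+ nEnd replicates 1 and 2, at 14.4, 17.4 and 1.83 in DP nEnd and at 31.1 in Pdgfra+ nEnd replicate 1. Next came 3 regions of Oct4+ nEnd only. That in Gse1, chr8:120330425-120339095, lay 101969 bp from a TSS and ranked at 51.2, 25.1, 3.81 and 38.1. Those in an intron of Grik3 and upstream of Slc1a3 lay 99583 and 89997 bp away and had a peak in Oct4+ nEnd replicates 1 and 2 only. Several regions shared a nearest coding gene, with 3 each at Msi2 and Trim27, so that the 329 regions are not independent of each other.

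Motif matches were counted in 1000 bp around the segment of highest coverage. This GATA site, recognised by endodermal and other GATA factors, was in 36.8% of windows of the 329 regions and in 16.5% of those at coding promoters. Noncoding promoter windows lay between, at 22.4%. By population it was found in 39.3% of windows of Oct4+ nEnd only, 37.5% of Oct4+ nEnd and DP nEnd, 25.5% of all 3 and 29.2% of DP nEnd and Pdgfra+ nEnd, and in 4 of the 7 of DP nEnd only and 4 of the 9 of Pdgfra+ nEnd only. The SOX-OCT core was in 10 windows off promoters (3.04%), and in 0.759% of coding and 1.69% of noncoding promoter windows. Promoter windows of Oct4+ nEnd and DP nEnd held it in 2.59%. By population it was in 8 of the 206 windows of Oct4+ nEnd only, 1 of the 32 of Oct4+ nEnd and DP nEnd and 1 of the 51 of all 3. The octamer was in 9 windows of Oct4+ nEnd only (4.37%), 4 of Oct4+ nEnd and DP nEnd (12.5%), 1 of all 3, 2 of DP nEnd and Pdgfra+ nEnd, 2 of Pdgfra+ nEnd only and 0 of DP nEnd only. Off promoters and at coding promoters as a whole, the octamer was in 5.47% and 2.15%, the ESRRB site in 3.34% and 1.16%, and GTTCGA in 19.8% and 14.2%, respectively. Noncoding promoter windows held the octamer in 7.59%, above the off-promoter share, and the ESRRB site in 2.95%. Promoter regions of Oct4+ nEnd only held the ESRRB site in 3.31%. The shares of the octamer, the SOX-OCT core and the ESRRB site are thus not particular to regions off promoters. Noncoding promoter windows held GTTCGA in 11.4%, below its off-promoter share. For regions of all 3 populations, GTTCGA was in 37.3% of windows off promoters and 14.4% at promoters. For those of Oct4+ nEnd only, it was less frequent off promoters than at promoters (16.3%). Over whole regions the contrasts were smaller. The GATA site occurred 5.39 times per 10 kb off promoters and 4.86 times at coding promoters, and the SOX-OCT core 0.336 and 0.208 times. The regions also differed from coding promoter regions in CpG ratio, whose part in these contrasts was not tested.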

How the data were processed

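For each H3K4me3 CUT&Tag library the authors made coverage tracks with bedtools and called peaks with SEACR (stringent, against IgG). They deposited each peak with its total signal and highest signal, and the segment of highest coverage. They determined the consensus lists of each population with DiffBind. The submitters' processing notes name the build mm10, which is GRCm38, and bedtools 2.26.0 and SAMtools 1.12. The signal is unscaled coverage, so that it was used only as a rank within a library.

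All results were computed from these lists with GENCODE release M21 and RefSeq on GRCm38. An overlap of 1 bp counted. The consensus lists were rebuilt exactly as intervals with a peak in at least 2 libraries, using Oct4+ nEnd replicates 1, 2 and 4. Nearest genes were those with the nearest TSS to the region's edge, and a region was placed in an exon, intron or between genes by its centre. Expected CpG came from the C and G content. Libraries were the unit of all tests, which were exact permutations. Benjamini-Hochberg adjustment ran over the 3 pairs of populations, and for the sign-flip tests over the rank and CpG results. A test passed at an adjusted p below 0.05. The p-values measure the spread between sorted replicates of 1 line. For the CpG ratio this spread comes only from which intervals each library called.

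The members and the gene lists were chosen with earlier results of these data known. Regions were named by rule: the 4 of each population class with a peak in most libraries and the highest lowest percentile, the 4 widest and 4 farthest, those nearest to a list gene, and 3 on each side of the window edge. Alternatives were a window of 2500 bp, coding TSS only, equal numbers of peaks (3477), peaks at the 329 regions only, the segment of highest coverage, coding gene bodies, rank by highest coverage, joined intervals, a replicate block and leaving out each library. Classification, distances and the exact tests were tested on simulated data. The versions were scipy 1.17.1, matplotlib 3.10.9, pandas 2.3.3, numpy 2.4.6 and Python 3.11.15.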

Additional observations from a re-analysis of the deposited data

How the results depend on the processing

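The rank and CpG differences kept the sign of their mean and passed under the alternatives run, with ranges of -29.1 to -26.2 percentile points and -0.157 to -0.129 when each library was left out. With the segment of highest coverage, an alternative added after seeing the data for both, they shrank to -11.4 percentile points and -0.0176, and the CpG difference turned in Pdgfra+ nEnd replicate 2. The share of peaks off promoters passed only with equal numbers of peaks (1.91 and 1.88 points for Oct4+ nEnd against DP nEnd and Pdgfra+ nEnd). Leaving out 1 library gave 2.12 to 3.33 points, 1.63 to 3.06 points and, for DP nEnd against Pdgfra+ nEnd, -0.99 to 0.33 points.

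The share in genes was 14.4 and 15.7 points at the 329 regions only, where the choice enters and no test is read. It lost its call with coding TSS only (6.92 and 2.17 points) and without any 1 library, where 16.4 to 18.1 and 10.8 to 17.0 points remained and no p below 0.0667 is possible. DP nEnd against Pdgfra+ nEnd, never called, reversed with the 2500 bp window (0.27 points) and at the 329 regions (1.29 points), with -6.45 to -0.23 points on leaving out 1 library. The share over 5 kb passed with coding TSS only (-2.21 and 3.09 points). For Oct4+ nEnd against DP nEnd it reversed with the wider window (0.46 points), equal peaks (13.1 points) and the 329 regions (4.38 points), with -2.05 to 1.57 points on leaving out 1 library. For DP nEnd against Pdgfra+ nEnd it reversed with equal peaks (-3.64 points) and the 329 regions (-4.37 points), with 5.58 to 11.4 points on leaving out 1 library, and for Oct4+ nEnd against Pdgfra+ nEnd that range was 4.99 to 10.7 points.

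With the segment of highest coverage in place of the whole peak, 27.2% to 40% of peaks fell off promoters, since the summit of many promoter peaks lies beyond the window. By this construction the share off promoters reversed to -0.54 points (Oct4+ nEnd against DP nEnd) and 4.30 points (DP nEnd against Pdgfra+ nEnd), the share in genes to -3.36, -2.44 and 0.93 points and the share over 5 kb to 6.17 points (Oct4+ nEnd against DP nEnd) and -0.90 points (DP nEnd against Pdgfra+ nEnd).

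With coding TSS only, 566 regions were off promoters, 292 of Oct4+ nEnd only, 13 of DP nEnd only and 14 of Pdgfra+ nEnd only. Leaving out 1 library gave 237 to 329 regions, 114 to 221, 1 to 25 and 0 to 25, respectively. Counts were within 1.5 times with the 2500 bp window, joined intervals and an Oct4+ nEnd consensus rebuilt from all 4 libraries.

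Replicate numbers did not pair the libraries. Deviations in peak presence correlated at -0.333 to 0.203 for the same number (9 pairs) and -0.482 to 0.51 for other numbers (24 pairs). With the replicate block over 3 pairs, which cannot go below p = 0.25 in the exact test, the share in genes differed by 17.0 and 13.3 points and lost its call, and no other call changed. Depth is unknown, and absence of a peak in a library with few peaks does not show absence of the mark.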
